A study of Drosophila melanogaster with 6 samples.

Results

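The innexins are the gap junction proteins of the fruit fly Drosophila melanogaster, and 8 of their genes were looked for by name: ogre (also called Inx1), Inx2, Inx3, Inx5, Inx6, Inx7, zpg (Inx4) and shakB (Inx8). A gene counted as measured where the array annotation gave it a probe set that named no other gene. This held for 7 of the 8, each with 1 probe set, among 10844 genes and 13966 probe sets in all. None of the 12771 annotated probe sets named shakB by symbol, synonym or Entrez identifier, alone or with other genes, so shakB, which forms electrical synapses of the giant fibre escape pathway, was not analysed.

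Oviducts of 3-day-old females, the ducts through which eggs leave the ovary, were compared on 6 single-channel Affymetrix arrays. The control group was unmated females (n = 3 arrays), dissected at times parallel to the mated group, and the other group was mated females (n = 3 arrays), dissected 3 h after mating ended. The labels name no strain, genotype or allele for either group; all flies were kept in a 12-h light and dark cycle. Tracts of 400 to 500 females were pooled, and since the labels do not say whether each array had its own pool, the spread between the arrays of a group may be partly technical.

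Innexins are multi-pass membrane proteins that assemble into half-channels. When half-channels of neighbouring cells dock, they form a gap junction through which ions, metabolites and second messengers such as calcium and inositol trisphosphate pass. In fly epithelia Inx2, Inx3 and ogre are the widely used members, and Inx2 and Inx3 form mixed channels. In the fly ovary zpg is the germline innexin, which pairs with Inx2 on the somatic cells that surround the germ cells. Inx6 and Inx7 are known mainly from the nervous system, where both act in neurons of the mushroom body circuit. The oviduct itself has an epithelium, a coat of visceral muscle and octopaminergic nerve endings.

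The arrays were not alike. Unmated arrays 1 and 2 had median intensities of 86.2 and 86, against 62.4 on unmated array 3 and 60.6 to 66.5 on the mated arrays, and ovary and gut marker genes had their highest summed signal on these 2. Innexin results are given with and without them. Of 8 genes listed as oviduct markers and octopamine receptors 4 were measured; Octbeta2R, an octopamine receptor needed for ovulation in the fly, lay between 242.9 and 653, above the array median on all 6 arrays, while Oamb, the receptor best known from the oviduct epithelium, had no probe set of its own here. Of 12 muscle genes 8 were measured and 7 of these lay above the array median on every array. The brightness of a probe set depends on its probes, so innexins are not ranked against each other by intensity.

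No innexin gene passed the limma test between mated and unmated oviducts. Over all probe sets 0 of 13966 passed at an adjusted p of 0.05 (0%), and the lowest adjusted p among the 7 innexins was 0.674. At an unadjusted p of 0.05 there were 921 probe sets (6.59%), of which 145 were higher (1.04%) and 776 lower (5.56%) in mated oviducts; 2 innexins, Inx6 and Inx7, were among the lower ones, and neither was after quantile normalization or cyclic loess. In 4 of 7 innexins the mean log2 value was higher in mated oviducts and in 3 it was lower. Over all probe sets 37.3% were higher and 62.7% lower, whatever the size. The median log2 difference was 0.24 for the 7 innexins and -0.16 for all genes, and 4 innexins lay above and 3 below the latter. Scaling moved the balance: with each array centred on its median, the median of all genes was 0.11, that of the innexins 0.51, and 325 probe sets were higher and 447 lower at an unadjusted p of 0.05. The innexin median also turned with the arrays used: it was -0.32 without unmated array 1, against -0.10 for all genes, and -0.0011 without unmated arrays 1 and 2, against 0.0057 for all genes.

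Inx3, the partner of Inx2 in epithelial channels, had the largest difference on the higher side. Unmated arrays 1, 2 and 3 gave intensities of 1597, 2026 and 3604, and mated arrays 1, 2 and 3 gave 4510, 3259 and 4696. The groups overlapped at a single point, since unmated array 3 was brighter than mated array 2. The means were 2409 ± 1057 and 4155 ± 781 (SD, n = 3 each), a 1.81-fold difference with a 95% interval from 0.929 to 3.52. The log2 difference was 0.86 ± 0.41 (SE), with a limma p of 0.0737 and an adjusted p of 0.770. Without unmated arrays 1 and 2 the log2 difference was 0.19 ± 0.52, in a fit of 1 unmated against 3 mated arrays that assumes the lone array varies like the others.

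Inx2 is a broadly used fly innexin, found in most epithelia as well as in follicle cells and glia. The unmated arrays gave intensities of 622, 688 and 1059, and the mated arrays gave 1472, 709 and 1137. Unmated arrays 1 and 2 and mated array 2 were low and the other 3 high, so the split did not follow mating. The means were 790 ± 236 and 1106 ± 383 (SD, n = 3 each), and the log2 difference was 0.46 ± 0.41 (SE; limma adjusted p 0.896), with an interval from -0.50 to 1.43. Without unmated arrays 1 and 2 the log2 difference was -0.0011, so that unmated array 3 stood at the mean of the mated arrays on the log2 scale.

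The gene ogre, named for the reduced optic ganglia of its mutants, also acts in glia and in neural precursor cells. In unmated oviducts the intensities were 730, 936 and 631, and after mating they were 759, 1057 and 1212. Mated arrays 2 and 3 lay above every unmated array, and mated array 1 lay between unmated arrays 1 and 2. The means were 766 ± 155 and 1009 ± 230 (SD, n = 3 each), with a log2 difference of 0.39 ± 0.35 (SE; limma adjusted p 0.897). Unlike the values of Inx2 and Inx3, the log2 difference of ogre was larger without unmated arrays 1 and 2, at 0.65 ± 0.54; whether the genes differ in this was not tested. With each array centred on its median, ogre had levels of -0.54, -0.17 and -0.28 in the unmated and of -0.10, 0.38 and 0.71 in the mated group, relative to its own mean, so the groups did not overlap on that scale (log2 difference 0.66, unadjusted limma p 0.109). There the median of all genes was 0.11, and the share of all probe sets whose groups were apart was not counted.

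The germline innexin zpg was brightest on the arrays where Inx3 was dimmest. Unmated arrays 1, 2 and 3 gave intensities of 372, 443 and 135, and the mated ones 165, 139 and 139. Unmated arrays 1 and 2 stood far above the rest, and unmated array 3 was the lowest of all 6. The means were 316 ± 161 and 147 ± 14.8 (SD, n = 3 each). The log2 difference was -0.93 ± 0.50 (SE; limma p 0.101, adjusted p 0.799). Without unmated arrays 1 and 2 the sign turned, to a log2 difference of 0.13 ± 0.49, and without unmated array 3 it was -1.47 ± 0.32.

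Inx5 had no consistent pattern. The unmated intensities were 31.3, 123 and 83.5, and the mated ones 99.7, 57.9 and 92.1. Both its lowest and its highest value were unmated ones, and all mated values fell between them. The log2 difference was 0.24 ± 0.56 (SE; limma adjusted p 0.965), and it turned to -0.32 without unmated array 1 and to -0.04 without unmated arrays 1 and 2.

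**Figure D1:**
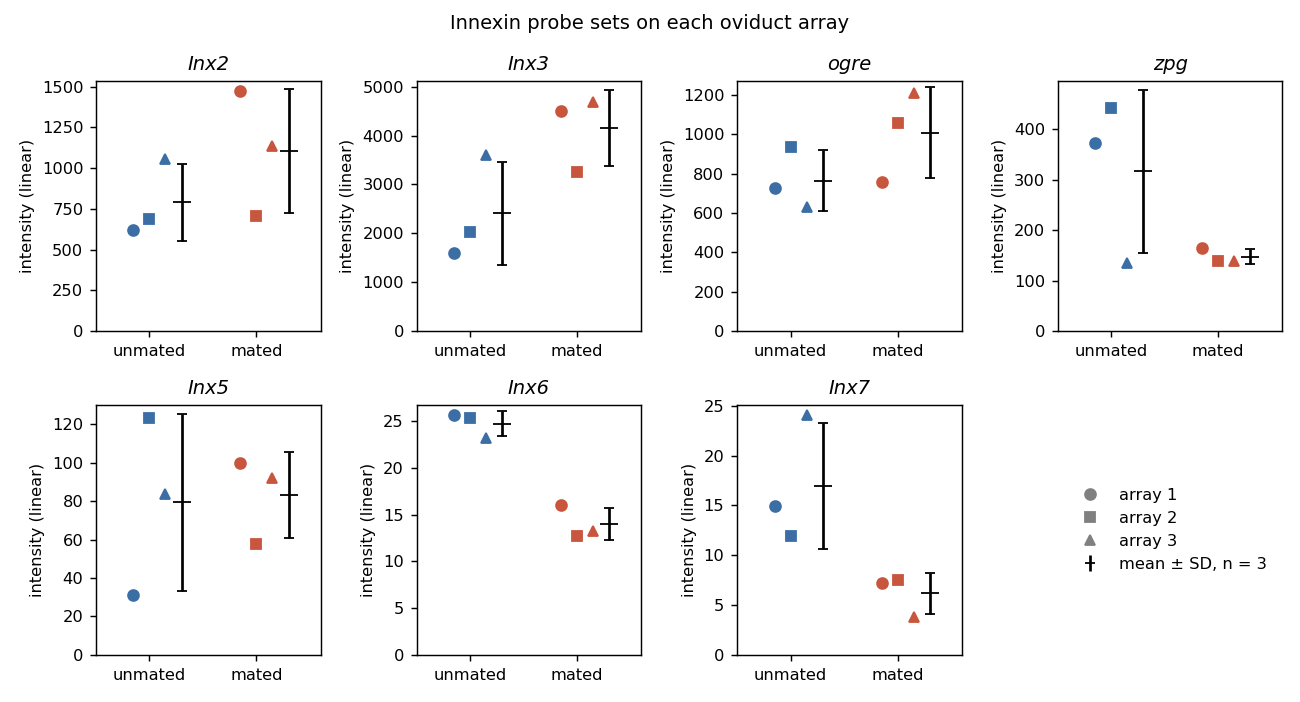
Intensity on a linear scale (vertical axis) of the 7 measured innexin probe sets on the unmated and mated oviduct arrays; each marker is 1 array and the bar is the mean ± SD (n = 3). The groups are apart for Inx6 and Inx7, which are dim, and overlap for the other 5 genes.

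The 2 innexins whose groups did not overlap were Inx6 and Inx7, both lower in every mated array than in any unmated array. Over all probe sets 1199 were separated in this direction (8.59%) and 326 in the other (2.33%). Among the 3492 probe sets with the lowest means, to which Inx7 belongs and which Inx6 just misses, 459 were separated in the lower direction (13.1%).

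Inx6 had intensities of 25.7, 25.3 and 23.2 in the unmated group and of 16, 12.7 and 13.3 in the mated group. The arrays of each group lay close together, and each mated value was below its own array's lower quartile. The means were 24.7 ± 1.34 and 14 ± 1.76 (SD, n = 3 each). The log2 difference was -0.83 ± 0.30 (SE; limma p 0.0279, adjusted p 0.736). The difference was -0.74 ± 0.49 without unmated arrays 1 and 2, and -0.49 (p 0.148) after quantile normalization and -0.45 (p 0.184) after cyclic loess. Its unadjusted p was also above 0.05 after median centring, with the replicate number as a block (p 0.0709) and without any one of unmated arrays 1 and 2 and mated arrays 2 and 3 (p 0.0713 to 0.0794). The same held with 32 added before log2 (limma p 0.0811). With limma's trend and robust variance the SE rose to 0.50 (p 0.129).

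For Inx7 the unmated intensities were 14.9, 11.9 and 24.1, and the mated ones 7.2, 7.5 and 3.8. It was below the lower quartile of the array on 5 of 6 arrays, the exception being unmated array 3, where it was brightest. The means were 17.0 ± 6.36 and 6.17 ± 2.06 (SD, n = 3 each), with a log2 difference of -1.46 ± 0.44 (SE; limma p 0.0119, adjusted p 0.674), and it was -2.03 ± 0.61 without unmated arrays 1 and 2. After quantile normalization it was -1.04 (p 0.0753) and after cyclic loess -1.02 (p 0.0841). No detection calls were used, so neither gene could be separated from background and these differences are not exact sizes. With 32 added to every intensity before log2, they shrank to -0.30 for Inx6 and -0.35 for Inx7.

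**Figure D2:**
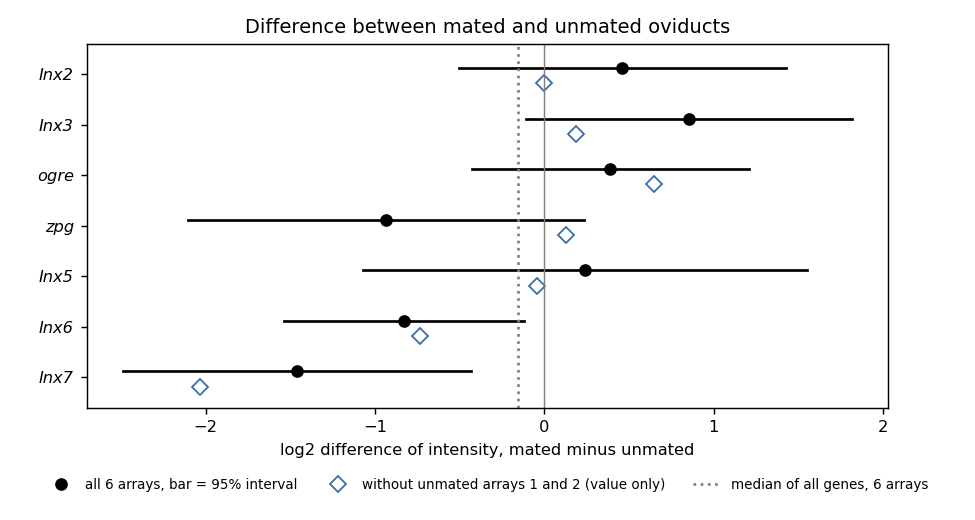
Log2 difference of intensity, mated minus unmated (horizontal axis), for the 7 innexin genes; filled points with bars are limma values with 95% intervals over all 6 arrays, open diamonds are the values without unmated arrays 1 and 2, and the dotted line is the median of all genes (-0.16). The diamonds of Inx2, Inx5 and zpg change their side of 0 and lie at -0.0011, -0.04 and 0.13. Those of Inx3 (0.19), ogre, Inx6 and Inx7 keep their side.

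Most germline and eggshell markers were high on the same 2 arrays as zpg. Both unmated arrays 1 and 2 lay above every other array in 9 of 11 measured germline genes and 9 of 13 eggshell genes. The share of all genes with this pattern was not counted. Among the exceptions, bam and BicD were highest on mated array 2 (14.8 and 250.5). The genes dec-1, Vm32E and psd were highest on mated array 1 (390.5, 1251.5 and 203.9). Of 12 germline genes 11 were measured, and their summed intensity was 513 to 2281 on the unmated arrays and 556 to 645 on the mated arrays. Unmated arrays 1, 2 and 3 held sums of 1724, 2281 and 513. The germline helicase gene vas had unmated intensities of 95.4, 128.4 and 24, and mated ones of 22.8, 19.7 and 26.8. In exu, which acts in bicoid RNA localisation in the oocyte, the log2 difference was -1.87 (limma adjusted p 0.745), and bcd itself had -1.28 (limma adjusted p 0.752). In this list 1 gene was higher and 10 lower, 3 with an unadjusted p under 0.05, 0 passed, and the median log2 difference was -1.28 against -0.16 for all genes; 0 values stood at 0. Without unmated arrays 1 and 2 the list's median was 0.13.

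Of 14 genes of follicle cells, chorion and vitelline membrane 13 were measured, with summed intensities of 12258, 12349 and 2805 on unmated arrays 1, 2 and 3 and of 1561 to 3877 on the mated arrays. The yellow-g2, Cp38 and Cp18 genes, which act in or encode the eggshell, had log2 differences of -2.06, -2.69 and -1.14, with limma adjusted p from 0.651 to 0.735. In all 12 of the 13 were lower, 6 had an unadjusted p under 0.05 and 0 passed, with a median of -1.43, which was -0.13 without unmated arrays 1 and 2. Of 13 midgut and tubule genes 10 were measured, 0 higher and 10 lower, and in 6 of them both unmated arrays 1 and 2 lay above the other 4 arrays. This also held for 3 of 7 fat body and 3 of 7 glial genes, and for 0 of 8 muscle and 0 of 7 neuronal genes. The share of all genes was not counted. For the midgut and tubule genes the median log2 difference was -1.90, or -0.59 without those 2 arrays. Their sums were 3274, 4005 and 1320 on unmated arrays 1, 2 and 3 and 735 to 1029 on the mated arrays. Mal-A1, betaTry and Jon65Aiii, which encode digestive enzymes, had differences of -2.26, -3.12 and -1.23, whereas LManII, NtR and Irk1 were higher on unmated array 3 than on unmated arrays 1 and 2. How much of the zpg signal came from ovarian tissue was not tested, and in pooled tissue fewer cells of a type and less RNA per cell cannot be told apart.

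Muscle genes did not follow zpg. Of the 8 measured, 4 were higher and 4 lower, with a median log2 difference of -0.01, and their summed intensity was 53412 to 76788 on the unmated and 56910 to 77954 on the mated arrays. After each array's median had been removed, the median log2 level of the muscle list relative to each gene's mean was -0.47, -0.42 and 0.39 in unmated samples 1, 2 and 3, with mated values from 0.12 to 0.34. On that scale Inx3 had unmated levels of -1.22, -0.88 and 0.42 and mated ones from 0.19 to 0.84. Inx2 had unmated levels of -0.82, -0.68 and 0.41 and mated ones from -0.25 to 0.79. Inx2, Inx3 and the muscle list were thus lowest on the arrays where the sums of ovary and gut markers were highest. For the muscle list this held only on the centred scale. In the muscle sums mated array 3 (56910) lay below unmated array 1 (58160). Centring lowers every gene on unmated arrays 1 and 2, whose medians were 86.2 and 86, against 60.6 to 66.5 on the others. A list with unchanged intensities would thus also be lowest there. The centred list of innexin neighbours was lowest on the same 2 arrays as well (-0.16 and -0.46). The part of tissue makeup in the Inx2 and Inx3 values was not tested.

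**Figure D3:**
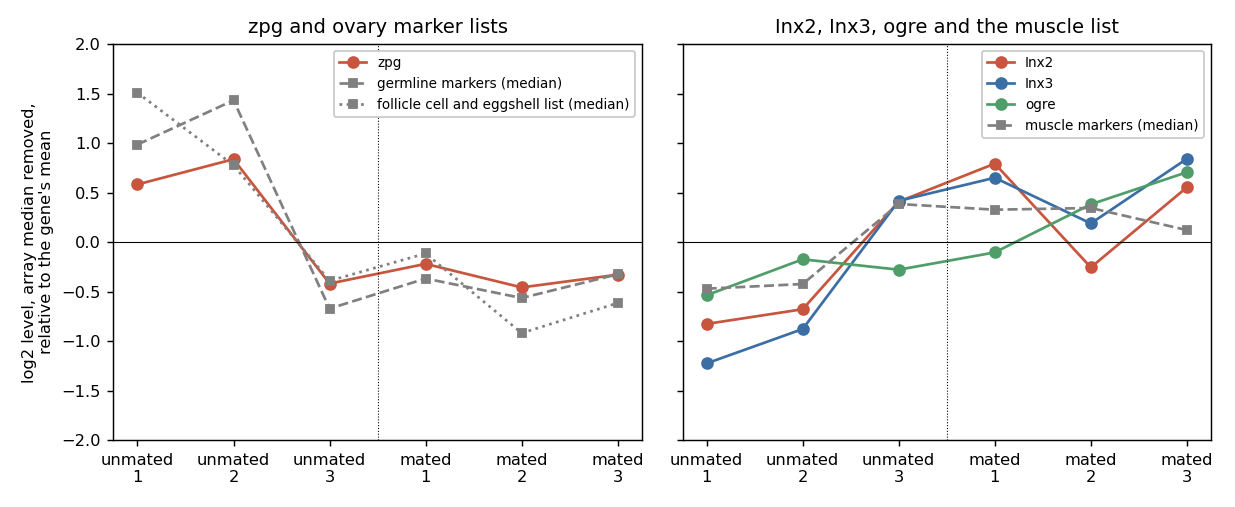
Log2 level on each array with the array median removed, relative to the gene's own mean (vertical axis), for zpg with 2 ovary marker lists (left) and for Inx2, Inx3 and ogre with the muscle list (right); lists are shown by the median of their genes, and the lines only join the points of a gene or list. Unmated arrays 1 and 2 are high for zpg (0.58 and 0.84) and low for Inx3 (-1.22 and -0.88), and unmated array 3 lies among the mated arrays for both genes.

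The other marker lists bear on the tissues in which innexins are known. Of 10 neuronal genes 7 were measured, 3 higher and 4 lower, with a median of -0.08 and a summed intensity of 132 to 224.5 on the unmated and 139 to 224.5 on the mated arrays; none of the 7 was above the array median on all arrays. The part of nervous tissue in the Inx6 and Inx7 values was not tested. Of 8 glial genes 7 were measured, 3 higher and 4 lower (median -0.28), with sums of 1611 to 2424 and 1473 to 2150; repo, the defining glial factor, stood between 40.4 and 149.6. Of 7 fat body genes 7 were measured, 1 higher and 6 lower (median -0.38), with sums of 15080 to 28299 and 9032 to 15764, led by the yolk protein genes. All 4 spermatheca genes were measured, 2 higher and 2 lower, with sums of 109 to 640 and 224 to 297. No gene of these 4 lists passed, and no marker value of any list was 0.

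Genes that work with gap junctions gave no difference that passed. Of 7 genes of the adherens junction and cell polarity 6 were measured, 3 higher and 3 lower, 0 with an unadjusted p under 0.05, and their median log2 difference was -0.06. The gene shg, which encodes E-cadherin, a protein bound by Inx2 and Inx3 in fly epithelia, had unmated intensities of 60.2, 68.4 and 88.8 and mated ones of 113.2, 84.2 and 77, with a log2 difference of 0.34. The difference was -0.30 for dlg1, a scaffold of the lateral membrane, and -0.41 for p120ctn, a cadherin-binding catenin, and the limma adjusted p of these 3 genes ran from 0.916 to 0.946. Among 10 genes of calcium release and entry, which drive the calcium waves that gap junctions carry, 8 were measured, 3 higher and 5 lower, with a median of -0.05 and 0 at an unadjusted p under 0.05. RyR, SERCA and Plc21C, which encode the ryanodine receptor, the calcium pump of the sarcoplasmic reticulum and a phospholipase C, had log2 differences of 0.33, 0.19 and -0.32.

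The ogre, Inx7 and Inx2 genes lie close to each other on chromosome X in RefSeq's release 6 annotation. Of 15 genes next to an innexin by start position 5 were measured. The gene bou, the neighbour that starts before Inx7, had unmated intensities of 672.5, 633.8 and 1324 and mated ones of 1231, 1378 and 1192, with a log2 difference of 0.61 ± 0.39 (SE; limma adjusted p 0.826). CG3040, the neighbour of ogre, was lower on every mated array, with 832 ± 42.4 and 648 ± 62.8 (SD, n = 3 each; log2 difference -0.36, limma adjusted p 0.871). The neighbour of Inx3, CG33203, differed by -0.29, that of Inx2, cm, by 0.24 and that of Inx5, RhoGAP18B, by -0.02.

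Signal ratios within an array do not depend on a single scaling factor per array, though quantile and loess normalization can move them. For the 5 brighter innexins, the change of each of 10 ratios between the groups was compared by a two-sided exact permutation test, which with 3 arrays against 3 cannot give a p below 0.1. All 10 ratios overlapped between the groups and none reached that p. The signal of zpg relative to Inx3 changed by -1.79 ± 0.88 on the log2 scale from unmated to mated oviducts (SE, n = 3 each; exact p 0.2, adjusted 0.5 over the 10), and by -0.06 without unmated arrays 1 and 2. That of Inx3 relative to Inx2 changed by 0.39 ± 0.21 (exact p 0.2, adjusted 0.5), or 0.19 without those 2 arrays. That of Inx2 relative to ogre changed by 0.07 ± 0.58 (exact p 0.8, adjusted 0.889), or -0.65 without them.

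The genes nearest to each innexin in their pattern over the 6 arrays were sought among 3607 named genes above the median level, by the root mean square difference between log2 values centred on each gene's mean. The measure uses both groups, so it also reflects the difference between them. For zpg these were RpS5b, a ribosomal protein gene with a close paralogue, at 0.16 log2 units, and S (Star), also at 0.16. RpS5b had unmated intensities of 2097, 3240 and 753 and mated ones of 1031, 723 and 875, and so was high on the same 2 arrays. For Inx3 they were spict at 0.10 and sip3 at 0.12, for Inx2 they were Ns2 at 0.06 and bel at 0.07, and for ogre they were Pgm2a at 0.04 and RagC-D at 0.07. None were sought for Inx5, Inx6 and Inx7, whose mean levels lay below the median of all genes.

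**Figure D4:**
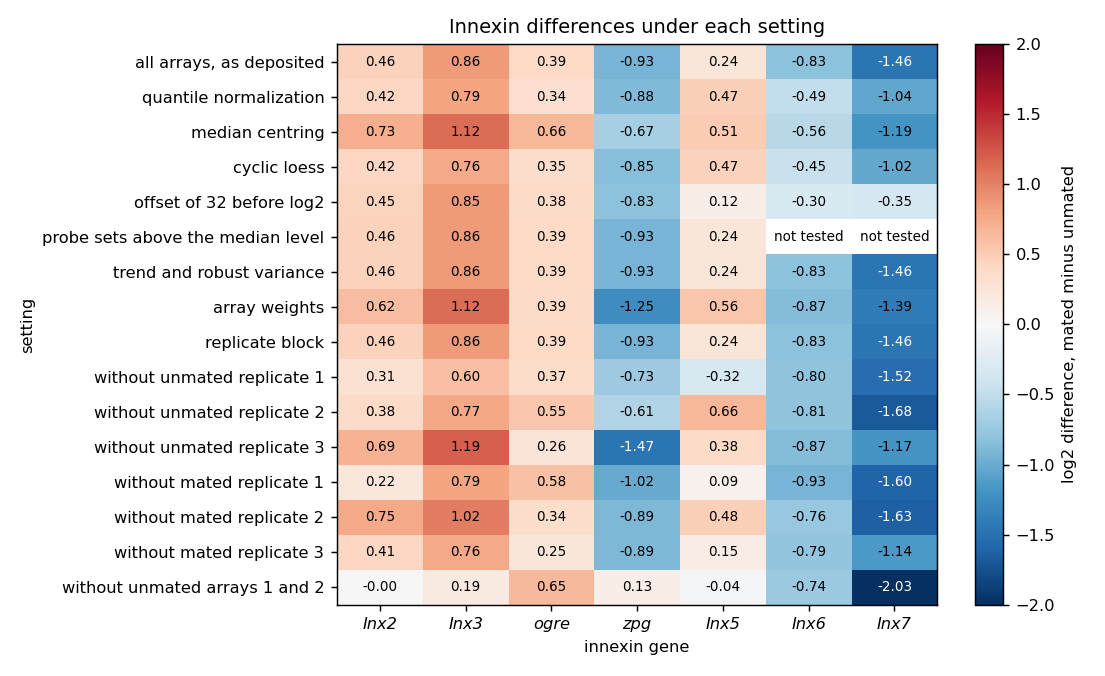
Log2 difference, mated minus unmated (colour and number), of each innexin gene (columns) under each processing setting (rows). Inx3, ogre, Inx6 and Inx7 keep their sign in every setting in which they were tested; Inx2, Inx5 and zpg change sign when unmated arrays 1 and 2 are left out, and Inx5 also without unmated array 1.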

How the data were processed

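The authors deposited 1 linear intensity per probe set and array, from biotin-labelled RNA on Affymetrix Drosophila arrays. RMA is named, with no version, in the submitters' processing notes, but the deposited intensities are not log2 values, and the summary and scaling the authors used are not given in the sources used here. The mean intensity of an array with its extreme values trimmed ran only from 249.3 to 249.8, so the arrays shared 1 level on that measure, though not in their medians. Of 14010 probe sets 44 controls were left out. Names came from the platform annotation, and for 12394 probe sets the current symbol was taken by Entrez identifier from the RefSeq release 6 gene table, whether or not it had changed. In all, 12443 probe sets had 1 gene, 327 several and 1196 none listed. A gene with several was represented by the one of highest mean log2.

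The groups were compared on log2 intensity, with no offset or filter, by limma 3.58.1 in R 4.3.3 (lmFit and eBayes, two-sided, Benjamini-Hochberg over 13966 probe sets, threshold 0.05). Lists are described by counts and medians. Named list genes are up to 3 per list with the smallest p, and defining markers. The innexins, lists, tests and alternatives were chosen with earlier results of these data known; the ratios between innexins, and the lists and ratios without unmated arrays 1 and 2, were added after their values had been seen. The test script was checked on simulated data. The number of arrays limits the precision.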

Additional observations from a re-analysis of the deposited data

How the results depend on the processing

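No innexin and no probe set passed the adjusted threshold under any of the 15 alternatives run. The mean over a gene's probe sets was not run, since each innexin has 1. Signs turned only without unmated arrays 1 and 2, for Inx2 (-0.0011), Inx5 (-0.044) and zpg (0.13), and without unmated replicate 1 for Inx5 (-0.32; up to 0.66 when another array was left out). The innexins with an unadjusted limma p under 0.05 were Inx6 and Inx7 with all arrays, and 0 after quantile normalization and cyclic loess. Which genes these were changed with the setting. Median centring left only Inx7 (limma p 0.0418), and so did the replicate block (limma p 0.0350). The offset of 32 left neither Inx6 nor Inx7, and only Inx3 was under 0.05 (limma p 0.0374). Among probe sets above the median level it was again Inx3 alone (limma p 0.0453). Trend and robust variance gave Inx3 (limma p 0.0268) and Inx7 (limma p 0.0297). The number was 4 with array weights, and 1 to 4 when 1 array was left out. With array weights 303 of all 13966 probe sets were higher and 1662 lower at that p, against 145 and 776 unweighted. Without unmated replicate 3 they numbered 292 and 1728, so in both settings more probe sets of all kinds were called. The 4 without unmated replicate 3 included zpg (p 0.00405) and Inx3 (p 0.0156); the lowest limma adjusted p of any innexin in any alternative, 0.212, was that of zpg there. Innexins whose groups did not overlap numbered 0 among probe sets above the median level, where Inx6 and Inx7 were not tested, and 2 to 5 when 1 array was left out, with 4 without mated replicate 2 and 5 without unmated replicate 3. Groups separate more easily with fewer arrays, and the share of all probe sets that did so was not counted in these settings. When 1 array was left out, the median log2 difference of the innexins ran from -0.32 without unmated replicate 1 to 0.38 without unmated replicate 2. It was 0.39 both with array weights and among probe sets above the median level. After median centring it was 0.51, where the median of all genes was 0.11. Probe sets higher and lower at an unadjusted p under 0.05 numbered 349 and 401 after cyclic loess, 325 and 447 with medians centred, 327 and 420 with quantiles equalized, 79 and 245 above the median level, 303 and 1662 with array weights, 384 and 232 without unmated arrays 1 and 2, and 127 to 292 and 433 to 1728 when 1 array was left out. The cause of these shifts was not tested. Arrays with the same replicate number did not deviate together: the correlations of their deviations over 6983 probe sets were -0.40, -0.11 and -0.30, so the numbers were not taken as pairs, and the replicate block gave 138 higher and 807 lower probe sets. Without detection calls, Inx6 and Inx7 cannot be separated from background.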

Other observations

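Of the 14 measured genes of the calcium and junction lists, 8 were lowest on unmated array 3 and mated array 1, 1 array of each group. The phospholipase C gamma gene sl stood at 101.9, 156.3 and 9.5 on unmated arrays 1, 2 and 3 and at 6.3, 101.3 and 99.3 on mated arrays 1, 2 and 3. Plc21C had 553, 513 and 126 against 124, 387 and 383.5, and p120ctn had 370, 358.5 and 119 against 102, 220 and 299. This pair was the lowest in 1814 of 10844 genes (16.7%), the most frequent of the 15 possible pairs. It was also the lowest for 4 of 7 measured glial genes and 4 of 11 germline genes, and for 0 or 1 gene in each remaining list. None of the 7 innexins had it: Inx2 and Inx3 were lowest on unmated arrays 1 and 2, which held for 771 genes (7.11%), and ogre was lowest on unmated arrays 3 and 1, which held for 394 (3.63%). The 3 named genes were chosen after their values had been seen. The control probe sets for 18S ribosomal RNA were also lowest on unmated array 3 and mated array 1, with means of 223.5 and 169.2. On the remaining arrays these means ran from 420 to 1005. Whether this bears on the genes named here was not tested.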
